A study of Mus musculus with 12 samples.

Results

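Macrophages taken from ischemic mouse calf muscle at 2 days post injury (2 dpi) were compared with macrophages taken at 7 dpi, over all genes of the deposited table that held enough counts for a test. The comparison used 6 of 12 RNA-seq libraries, 3 at 2 dpi and 3 at 7 dpi, and 14310 of 55414 gene IDs passed the filter on low counts. Each group came from C57BL6J wild type male mice of 8 to 12 weeks, and every mouse had undergone hindlimb ischemia by surgery on the femoral artery, so that by the labels the 2 groups differed in the time after surgery alone and neither was an uninjured control. Cells were sorted from digested muscle of the ischemic limb as t-CD45+CD11b+F4/80+CD64+, where t-CD45 marks immune cells of the tissue and F4/80 and CD64 are surface proteins of mouse macrophages. A sort of this kind pools monocytes on their way to becoming macrophages, macrophages derived from them and macrophages that lived in the muscle before the injury. The libraries of 4 dpi, of the same strain, surgery and sort, were used to place each change between the 2 time points, and those of 1 dpi entered the fit only. Whether 1 mouse or a pool of mice went into a library is not given in the sources used here, so P values cover the spread among these libraries, part or all of which may be technical.

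Closing an artery kills muscle fibres, and blood monocytes enter the tissue within days and turn into macrophages. Early macrophages take up debris and release inflammatory signals, whereas later ones clear apoptotic cells, present antigen on MHC class II proteins and release factors that act on myogenic progenitors, fibroblasts and vessels. The change is known to come with a shift in metabolism, and the interval from 2 to 7 dpi spans it.

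Total counts were 20530108 to 27597254 at 2 dpi and 21818697 to 24137647 at 7 dpi. ENSMUSG00000119584, a gene without a symbol in the annotation used, took 40.3% to 46.0% of them at 2 dpi and 14.8% to 30.1% at 7 dpi. The counts outside it numbered 11078282 to 15807914 and 16861728 to 18581365, respectively, and 16206 to 16756 against 19351 to 21257 genes had a count. The mitochondrial genome accounted for 4.77% to 5.36% of the remaining counts at 2 dpi and for 6.62% to 18.9% at 7 dpi. The highest share was in 7 dpi replicate 2, a library that also stood apart in several gene groups and is named there. Depth and these shares differed between the groups, and their part in the results was not tested.

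At 7 dpi 2654 genes were higher than at 2 dpi and 1920 were lower, which is 18.5% and 13.4% of the genes tested, or 32.0% together (edgeR quasi-likelihood test, FDR under 0.05 and absolute log2FC above 1). These shares are the background against which each gene group is read below. The 35 gene lists hold 1121 distinct genes. Where a list had no DEG in a direction, DESeq2 and limma-voom gave none either, except 1 higher neutrophil marker with DESeq2, and at an unadjusted P under 0.05 there were 4 higher hypoxia genes, 1 lower mitosis gene and 1 higher neutrophil marker. Increases reached further than decreases. Of the increases 1566 were more than 4-fold and 414 more than 16-fold, and of the decreases 367 and 54. No count at all was found for 154 tested genes in the libraries of 2 dpi, and for 14 in the libraries of 7 dpi. A gene can pass the filter through a single time point, and more genes had a count at 7 dpi. The part of this in the uneven numbers and folds was not tested. Of protein-coding genes 16.2% were higher and 13.9% lower. Without regard to the fold threshold 3371 genes were higher and 3412 lower. The share of higher genes among the DEGs was 58.0%, and it was 65.1% with RLE size factors, 66.2% with DESeq2 and 52.5% after removing a trend on gene length. The median log2FC over all genes was 0.11, and with RLE size factors it was 0.23. Along the first principal component of the 6 libraries, which held 72.95% of the variance, the libraries of 2 dpi lay within -83.1 to -81.8 and those of 7 dpi at 78.4, 108 and 60.5.

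**Figure D1:**
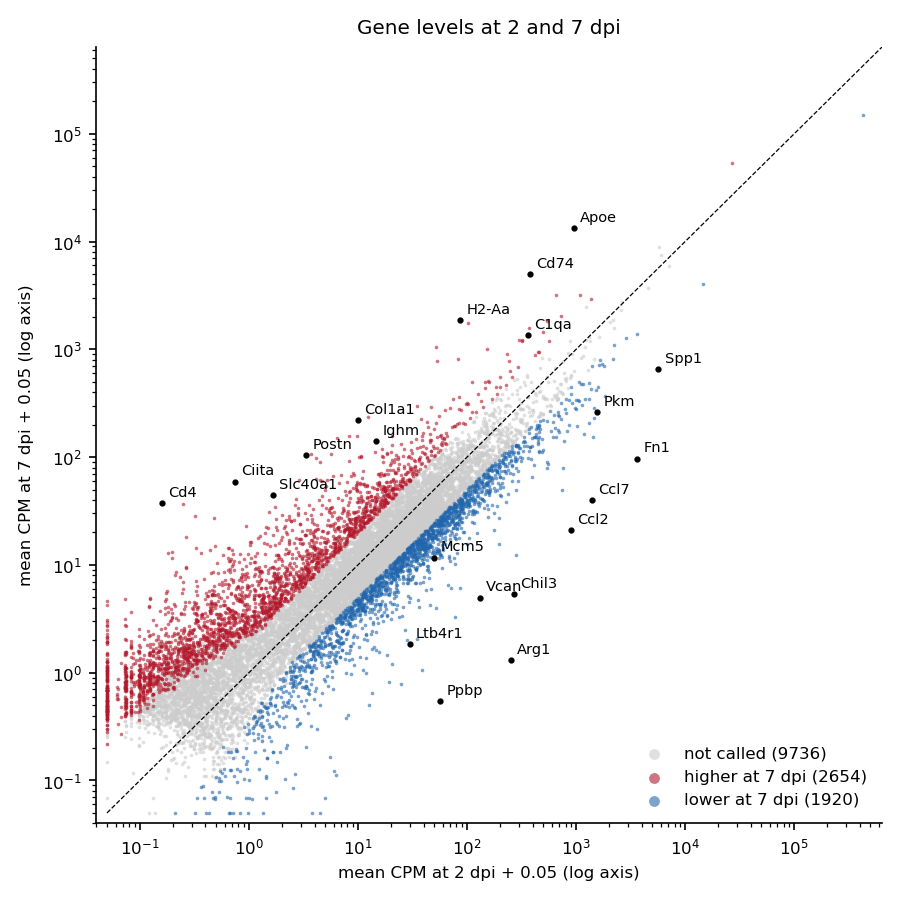
Mean CPM of each of the 14310 tested genes at 2 dpi (x-axis) and at 7 dpi (y-axis), with 0.05 added and both axes logarithmic, and with DEGs in red where higher and in blue where lower at 7 dpi. The 2654 red points reach further from the dashed line of equal level than most of the 1920 blue points, and Cd4, Ciita and H2-Aa stand far above it, Arg1, Ppbp and Fn1 far below.

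The largest increases lay side by side in the genome. DEGs were ranked by their change if the mean log2 CPM was 4 or more at the time point of higher level and the 3 libraries of each group lay apart. The largest increases by this rule were in Cd4, the co-receptor of helper T cells for MHC class II, Lag3, an inhibitory receptor that binds MHC class II, and Gpr162, an orphan receptor. Cd4 measured 0.225, 0.0996 and 0 CPM in the 3 libraries of 2 dpi and 37.0, 30.0 and 44.8 CPM in those of 7 dpi (log2FC = 8.38, SE 0.68, adjusted P = 8.3e-07). Lag3 measured 0.225, 0.299 and 0.0717 CPM and 55.8, 23.5 and 31.8 CPM (log2FC = 7.57, SE 0.62, adjusted P = 8.46e-07), and Gpr162 0.451, 0 and 0.358 CPM and 39.9, 15.2 and 30.2 CPM (log2FC = 6.60, SE 0.63, adjusted P = 5.22e-06). Every library of 7 dpi was above every library of 2 dpi for these genes. In the gene order of GRCm38.p6 on chromosome 6 they are direct neighbours, with no other gene of that table between them. The next tested genes on each side were chosen after the values were seen. Ptms, which encodes the nuclear protein parathymosin and lies next to Lag3, rose as well (log2FC = 2.53, SE 0.32, adjusted P = 2.46e-05), as did P3h3, a collagen-modifying enzyme gene on the other side of Gpr162 (log2FC = 2.88, SE 0.60, adjusted P = 0.00105). Farther out the direction was not shared. Mlf2 had a log2FC of -0.48, below the fold threshold, Cdca3 had 0.77 and was not called (adjusted P = 0.18), and Usp5 fell (log2FC = -1.45, SE 0.21, adjusted P = 5.41e-05). The library protocol does not mark the strand, so reads in any overlap of neighbouring genes cannot be told apart. Tmem176a and Tmem176b, which also met this rule, are neighbours on chromosome 6 as well. Tmem176b, a membrane protein gene of antigen presenting cells, measured 5.52, 7.57 and 5.95 CPM and 165, 179 and 108 CPM (log2FC = 4.57, SE 0.38, adjusted P = 9.28e-07).

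The other large increases were in antigen presentation, matrix and interferon genes, described with their groups, and in 5 further genes. Dnase1l3, which encodes an enzyme that digests extracellular DNA, measured 0.300, 0.199 and 0.143 CPM at 2 dpi and 22.2, 7.92 and 24.6 CPM at 7 dpi (log2FC = 6.38, SE 0.61, adjusted P = 2.73e-06), with 20.6, 50.9 and 59.1 CPM in the libraries of 4 dpi. Slc40a1, the iron exporter ferroportin, measured 1.73, 1.89 and 1.22 CPM and 44.8, 55.5 and 32.2 CPM (log2FC = 4.78, SE 0.37, adjusted P = 7.08e-07). The imprinted non-coding RNA H19 measured 0.376, 0.199 and 0.717 CPM and 44.5, 16.2 and 21.7 CPM (log2FC = 5.93, SE 0.51, adjusted P = 1.14e-06). For these genes the groups did not overlap, nor did they for Calhm6 (log2FC = 4.69, SE 0.46, adjusted P = 3.02e-06) or Cd72 (log2FC = 4.44, SE 0.38, adjusted P = 1.07e-06), a co-receptor gene known from B cells.

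By the same rule the largest decrease was in Arg1, which encodes arginase 1 and is widely used as a marker of alternative activation. It measured 246, 264 and 251 CPM in the libraries of 2 dpi and 2.00, 1.05 and 0.707 CPM in those of 7 dpi (log2FC = -7.65, SE 0.86, adjusted P = 9.27e-06). At 4 dpi replicate 1 measured 49.4 CPM and replicates 2 and 3 measured 3.82 and 4.83 CPM, so the libraries of that time point differed in how far the decrease had gone. Padi4, a peptidylarginine deiminase gene, fell from 38.6, 33.8 and 42.3 CPM to 0.891, 1.29 and 0.848 CPM (log2FC = -5.24, SE 0.40, adjusted P = 7.08e-07). Pdpn, the membrane glycoprotein podoplanin, fell from 303, 237 and 311 CPM to 13.7, 7.49 and 15.7 CPM (log2FC = -4.53, SE 0.47, adjusted P = 5.22e-06). Olr1, a receptor for oxidised lipoprotein, fell from 37.0, 32.6 and 34.1 CPM to 2.11, 2.62 and 1.27 CPM (log2FC = -4.11, SE 0.29, adjusted P = 2.98e-07). Among the rest were Ppbp, a platelet and myeloid chemokine gene (log2FC = -6.83, SE 1.08, adjusted P = 0.000123), Cd177, known as a surface protein of neutrophils (log2FC = -5.05, SE 0.58, adjusted P = 1.1e-05), Flrt3 (log2FC = -4.58, SE 0.54, adjusted P = 1.31e-05) and Ltb4r1, the receptor for leukotriene B4 (log2FC = -4.08, SE 0.62, adjusted P = 9.7e-05). In none of these genes did a library of 7 dpi reach a library of 2 dpi. Cd177, Padi4 and Ltb4r1 are also expressed by neutrophils, whose markers are given below, and the part of such cells was not tested.

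**Figure D2:**
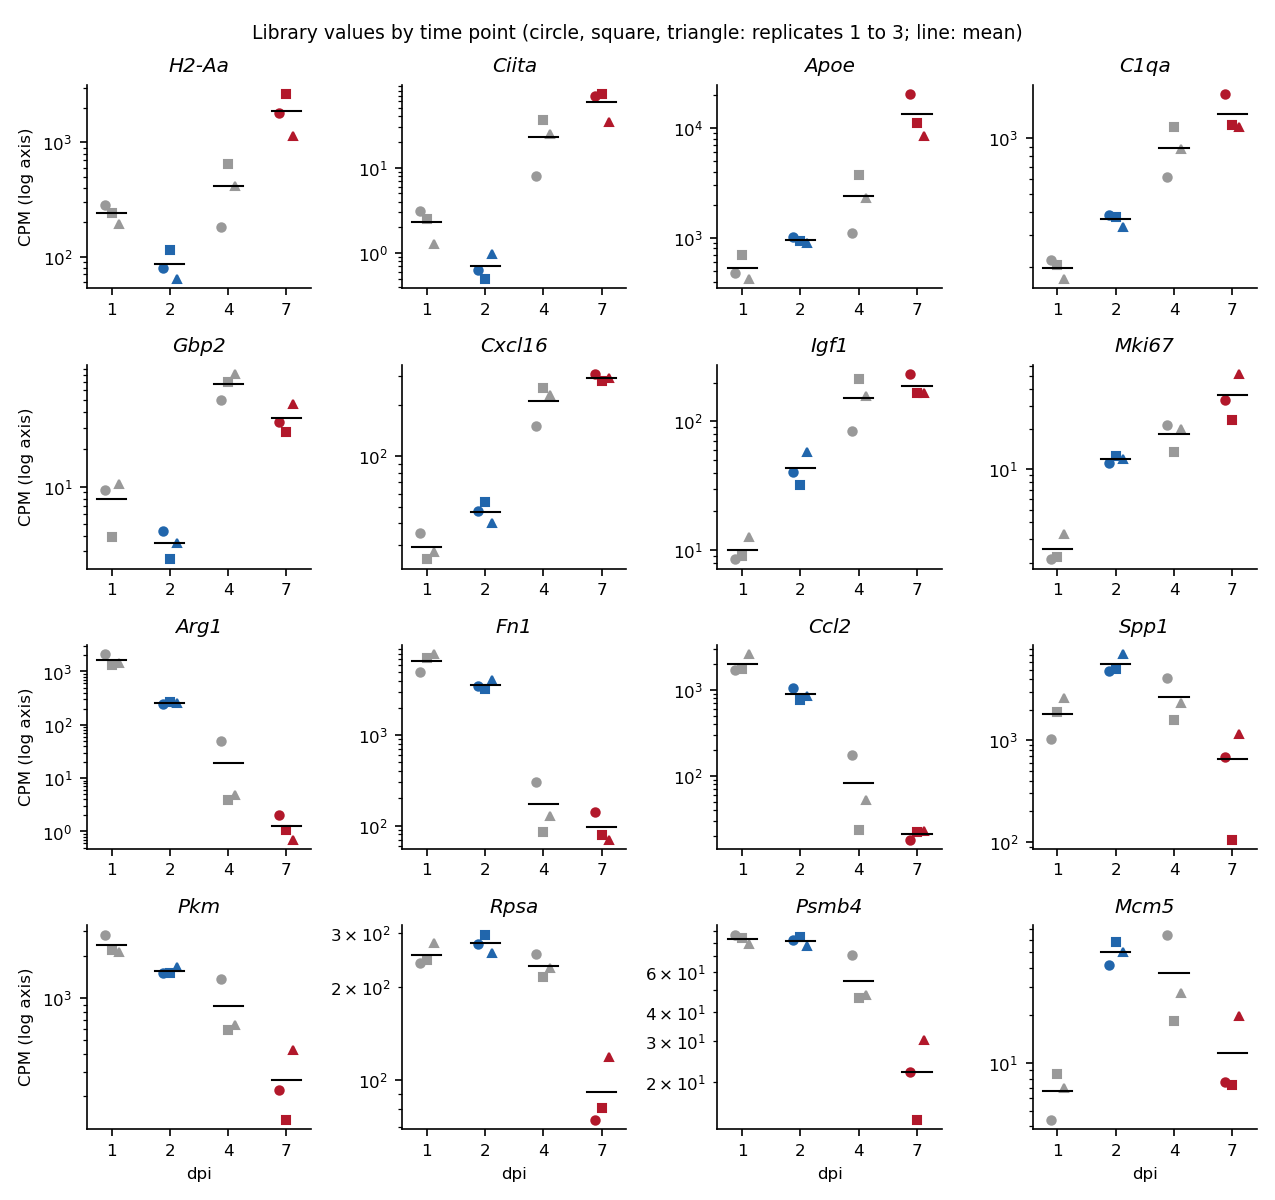
CPM (y-axis, logarithmic, scaled for each gene) of 16 genes in all 12 libraries by time point (x-axis, dpi), with circles, squares and triangles for replicates 1 to 3, blue for 2 dpi, red for 7 dpi, grey for 1 and 4 dpi and a line at the mean. In every panel the 3 red points lie apart from the 3 blue points, and at 4 dpi replicate 1 often lies nearest to 2 dpi, as for Arg1 and Ciita.

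The genes behind the sort were measured in every library and did not share a direction. Adgre1, which encodes F4/80, had 452, 473 and 475 CPM at 2 dpi and 578, 775 and 652 CPM at 7 dpi, a difference below the fold threshold (log2FC = 0.52, SE 0.20, adjusted P = 0.0421). Fcgr1, which encodes CD64, had 281, 278 and 237 CPM and 138, 118 and 164 CPM and also stayed within the fold threshold (log2FC = -0.92, SE 0.21, adjusted P = 0.00209), which it passed without 7 dpi replicate 3. Itgam, which encodes CD11b, fell (log2FC = -1.31, SE 0.18, adjusted P = 4.18e-05), and Ptprc, which encodes CD45, rose (log2FC = 1.10, SE 0.18, adjusted P = 0.000166). Csf1r, the receptor for the growth factor of macrophages, rose (log2FC = 1.06, SE 0.21, adjusted P = 0.000637), and so did Mertk, a receptor for apoptotic cells (log2FC = 1.52, SE 0.24, adjusted P = 0.000136). The calls of Ptprc and Csf1r were lost when a trend on gene length was removed. Of 15 genes of the macrophage lineage, 4 rose and 1 fell, with a median log2FC of 0.47.

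Markers of other cell types were low but not constant. Of 22 neutrophil markers 10 could be tested and 7 of them fell. S100a8, which encodes a calcium-binding alarmin, measured 2.55, 4.98 and 3.66 CPM at 2 dpi and 0 in all 3 libraries of 7 dpi. The summed level of the 22 markers was 94.0 to 134 CPM at 2 dpi and 47.3 to 166 CPM at 7 dpi, and Ly6g, Ngp, Camp, Stfa2 and BC100530 were at 0 in both groups. Of 24 T and NK cell markers 6 could be tested, and 1, Cd4, rose. Cd3d, Cd3g and Cd8b1 were at 0 in both groups, Cd3e had at most 4 counts in a library, and the summed level was 57.8 to 86.8 CPM at 2 dpi and 52.9 to 112 CPM at 7 dpi. Of 15 B cell markers 7 could be tested and 5 rose, among them Ighm, the heavy chain of IgM (log2FC = 3.25, SE 0.42, adjusted P = 2.33e-05), and Cd22 (log2FC = 3.59, SE 0.38, adjusted P = 5.22e-06). Their summed level was 23.5 to 30.6 CPM at 2 dpi and 173 to 238 CPM at 7 dpi, of which Ighm alone made 14.5, 17.4 and 12.1 and 136, 166 and 118 CPM, while Cd79a had at most 14 and Ms4a1 22 counts in any of these libraries and Mzb1 was at 0. Of 13 eosinophil and mast cell markers, 4 could be tested and 1, Kit, fell (log2FC = -1.39, SE 0.45, adjusted P = 0.0194), a call lost without 2 dpi replicate 2 or 3 or 7 dpi replicate 1. Epx, Il5ra, Ms4a2 and Fcer1a were at 0 in both groups.

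Dendritic cell, matrix and muscle genes were higher at 7 dpi. Of 18 tested dendritic cell markers 12 rose and 1 fell. Batf3, a transcription factor of cross-presenting dendritic cells, rose (log2FC = 2.91, SE 0.45, adjusted P = 0.000104), whereas Cd24a fell from 84.5, 75.3 and 101 CPM to 3.08, 3.08 and 12.0 CPM (log2FC = -3.84, SE 0.41, adjusted P = 6.48e-06). The 19 markers summed to 774 to 787 CPM at 2 dpi and 1101 to 1435 CPM at 7 dpi. Of their defining members, Flt3 had 2 to 6 counts in a library of 2 dpi and 26 to 84 in one of 7 dpi, Siglech 0 to 2 and 58 to 149, and Xcr1 20 to 24 and 14 to 24. So few counts make a small part of the sum, most of which came from other members of the list. Of 21 tested endothelial and mural markers 4 rose and 1 fell, with summed levels of 125 to 169 and 166 to 329 CPM. The rising share of 19.0% was close to the 18.5% of all genes, and the falling share of 4.76% was below their 13.4%. The rising ones were the mural genes Myh11, Acta2 and Rgs5 and the endothelial phosphatase gene Ptprb, and Pecam1, the endothelial gene for CD31, was not called (log2FC = 0.84, SE 0.38, adjusted P = 0.0792).

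Of 44 tested genes of matrix and stromal cells 36 rose and 3 fell, with a median log2FC of 2.99. Col1a1, the chain of type I collagen, measured 7.21, 10.5 and 12.3 CPM at 2 dpi and 314, 143 and 206 CPM at 7 dpi (log2FC = 4.47, SE 0.46, adjusted P = 5.06e-06). Postn, the matrix protein periostin, measured 2.55, 3.78 and 3.55 CPM and 98.2, 68.5 and 147 CPM (log2FC = 4.99, SE 0.42, adjusted P = 1.01e-06), and Bgn, the proteoglycan biglycan, 5.48, 6.27 and 5.81 CPM and 88.8, 52.6 and 57.5 CPM (log2FC = 3.50, SE 0.29, adjusted P = 8.3e-07). The groups did not overlap for these genes. Timp1, an inhibitor of matrix proteases, went the other way (log2FC = -3.14, SE 0.55, adjusted P = 0.000273). The list summed to 998 to 1033 CPM at 2 dpi and 1851 to 2570 CPM at 7 dpi, and Tcf21 was at 0 in both groups. Of 30 tested muscle genes 20 rose and 1 fell (median log2FC 2.88). Acta1, the actin of skeletal muscle fibres, measured 4.43, 4.08 and 5.30 CPM and 60.9, 46.7 and 24.4 CPM (log2FC = 3.25, SE 0.42, adjusted P = 2.73e-05), and Des, which encodes desmin, rose (log2FC = 3.67, SE 0.38, adjusted P = 5.06e-06). Myog, a transcription factor of differentiating myoblasts, had no count at 2 dpi and 110, 20 and 94 counts at 7 dpi. The 37 muscle genes summed to 60.5 to 67.8 CPM at 2 dpi and 151 to 249 CPM at 7 dpi, with Myh7 and Tnnc2 at 0 in both. The part of other cells in the changes of these lists, and in those described next, was not tested.

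**Figure D3:**
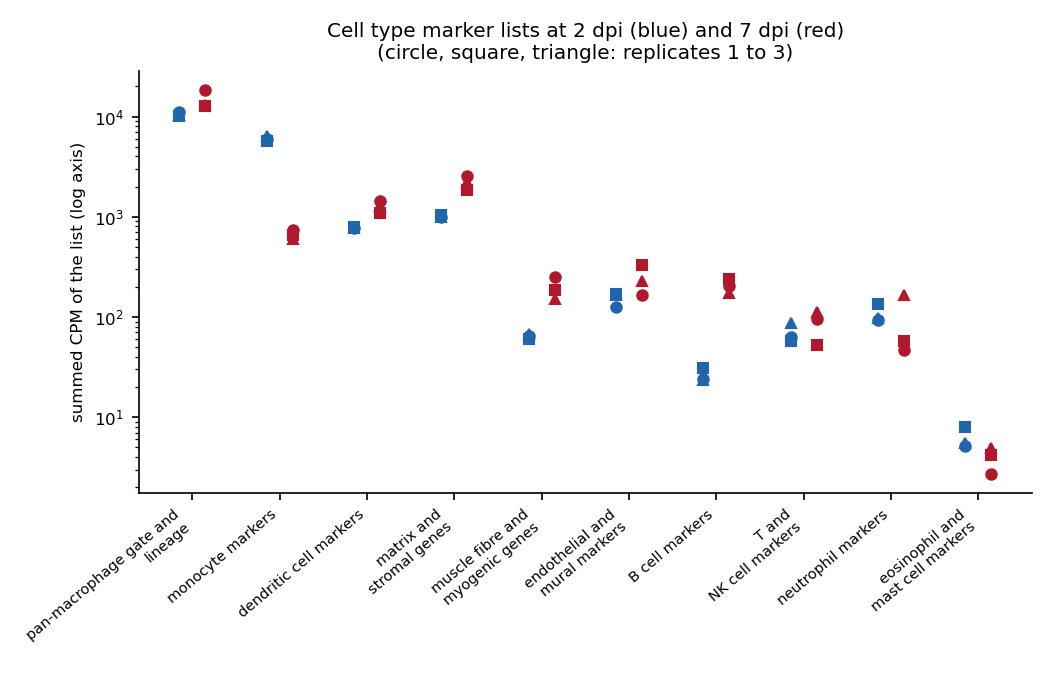
Summed CPM (y-axis, logarithmic) of 10 cell type marker lists (x-axis) in the 3 libraries of 2 dpi (blue) and the 3 of 7 dpi (red), with a symbol for each replicate. Monocyte markers lie between 5679 and 6406 CPM at 2 dpi and 604 and 745 CPM at 7 dpi, B cell, muscle and matrix lists lie higher at 7 dpi in each library, and neutrophil, T and NK cell and endothelial lists overlap between the groups.

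MHC class II genes rose strongly. These proteins hold peptides from outside the cell for helper T cells, and CIITA is the factor that switches their genes on. Of 17 tested genes 12 rose and none fell (median log2FC 2.12, against 0.11 for all genes). H2-Aa, the alpha chain of I-A, measured 79.5, 115 and 63.9 CPM in the libraries of 2 dpi and 1817, 2665 and 1129 CPM in those of 7 dpi (log2FC = 4.44, SE 0.43, adjusted P = 2.96e-06). H2-Eb1, the beta chain of I-E, measured 46.3, 63.6 and 45.0 CPM and 907, 1606 and 636 CPM (log2FC = 4.35, SE 0.40, adjusted P = 1.88e-06). Cd74, the invariant chain that guides class II proteins to the endosome, measured 346, 445 and 336 CPM and 5185, 6711 and 2978 CPM (log2FC = 3.72, SE 0.38, adjusted P = 5.06e-06). Replicate 2 was the highest and replicate 3 the lowest library of 7 dpi for each of them, and no library of 2 dpi reached these levels. Ciita itself measured 0.638, 0.498 and 0.968 CPM and 69.5, 73.5 and 34.5 CPM (log2FC = 6.36, SE 0.55, adjusted P = 1.08e-06), and at 4 dpi 8.08, 36.3 and 24.7 CPM. For H2-Aa the level at 4 dpi lay 0.49 of the way from 2 to 7 dpi on the log2 scale, and the median over the 12 rising genes was also 0.49. The dendritic cell and B cell marker sums given above moved in the same direction as this list.

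Promoter sequences of 12 of the 18 listed genes were in RefSeq (GRCm38.p6), and ATTGG, the core of the Y box that belongs to the conserved promoter elements of class II genes, was found on either strand in 9 of their 14 promoter windows of 300 bases (64.3%), against 37.4% of all 32851 windows. The 150 bases before the start are shown for H2-Eb1 (chr17:34305717-34305866, plus strand), H2-Aa (chr17:34287824-34287973, minus strand) and H2-DMb1 (chr17:34153041-34153190, plus strand). They let the shared element and its similar distance be seen. Among the rising members considered for display, these had the smallest P with a match there. Capitals mark ATTGG or its complement CCAAT, and the first match began 59, 48 and 61 bases before the start. H2-DMb1, a chain of the protein that loads peptides, also rose (log2FC = 2.66, SE 0.27, adjusted P = 5.06e-06). Ciita and H2-Ab1 had no entry. Cd74, whose P was smaller than that of H2-DMb1, was not considered for display, and whether it has a match is not given here. ATTGG was not particular to this list, as it was in 77.0% of windows of the mitosis list and 60.0% of the DNA replication list.
H2-Eb1: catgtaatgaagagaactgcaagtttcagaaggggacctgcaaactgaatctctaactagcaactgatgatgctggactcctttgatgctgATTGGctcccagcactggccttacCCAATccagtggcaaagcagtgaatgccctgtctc
H2-Aa: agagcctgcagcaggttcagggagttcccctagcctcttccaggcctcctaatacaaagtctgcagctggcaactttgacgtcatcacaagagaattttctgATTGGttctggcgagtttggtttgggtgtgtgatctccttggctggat
H2-DMb1: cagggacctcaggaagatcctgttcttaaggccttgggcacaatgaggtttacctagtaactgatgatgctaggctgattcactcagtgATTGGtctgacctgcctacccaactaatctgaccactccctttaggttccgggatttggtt

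MHC class I genes, which show peptides from inside the cell to cytotoxic T cells, also rose. Of 21 genes 11 rose and 2 fell, with a median log2FC of 1.10 and a median place of 4 dpi of 0.84. H2-K1, a classical class I heavy chain, measured 266, 243 and 224 CPM at 2 dpi and 859, 635 and 868 CPM at 7 dpi (log2FC = 1.69, SE 0.19, adjusted P = 1.02e-05). H2-Q7 and H2-T23, both non-classical heavy chains, rose with log2FC values of 4.11 and 2.14. The pair that fell work in the endoplasmic reticulum, where Erap1 trims peptides (log2FC = -1.16, SE 0.17, adjusted P = 6.93e-05) and the chaperone Calr helps in loading (log2FC = -1.63, SE 0.26, adjusted P = 0.000126). Genes of the H2 family are near copies of one another, and reads may be split between them, which leaves the level of a single member uncertain.

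Interferon-stimulated genes rose as a group, and most of the rise lay before 4 dpi. Interferons act through STAT factors, and their targets encode GTPases, nucleic acid sensors and proteins that block viruses. Of 70 tested genes 57 rose and none fell, and in 65 of 70 the 3 libraries of 7 dpi all lay above the 3 of 2 dpi, a pattern found in 30.8% of all genes. The median log2FC was 1.65. Gbp2, a guanylate-binding GTPase, measured 4.39, 2.59 and 3.51 CPM at 2 dpi, 50.1, 70.0 and 81.3 CPM at 4 dpi and 33.5, 27.9 and 46.4 CPM at 7 dpi (log2FC = 3.35, SE 0.34, adjusted P = 4.22e-06 for 7 against 2 dpi). Gbp3 of the same family measured 3.23, 2.49 and 2.51 CPM, 27.0, 42.8 and 41.5 CPM and 27.8, 27.6 and 36.0 CPM (log2FC = 3.47, SE 0.28, adjusted P = 8.3e-07). Ifit2, an RNA-binding antiviral protein, measured 5.93, 1.99 and 4.37 CPM, 107, 126 and 186 CPM and 147, 63.0 and 85.6 CPM (log2FC = 4.57, SE 0.55, adjusted P = 1.51e-05). For Gbp2 every library of 4 dpi was above every library of 7 dpi, whereas for Gbp3 and Ifit2 the libraries of 4 and 7 dpi overlapped. The median place of 4 dpi among the 57 genes was 1.06, where 0 is the level of 2 dpi and 1 that of 7 dpi, and in 44 of them the level at 4 dpi was nearer to 7 dpi than the midpoint (adjusted P under 0.05), against 12.5% of all genes higher at 7 dpi. With 1 library left out that number was 26 to 47, the lowest without 4 dpi replicate 3. Mndal, a DNA-sensing family member, measured 22.5, 17.4 and 19.2 CPM, 61.1, 66.3 and 71.8 CPM and 82.2, 83.0 and 90.2 CPM, with 4 dpi below 7 dpi in each library (log2FC = 2.11, SE 0.21, adjusted P = 3.71e-06).

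The core of the interferon-stimulated response element was searched on either strand as GAAA repeated after a gap of 2 bases. It was found in 38 of 69 promoter windows of this list (55.1%), against 3.44% of all windows and 5 of 21 windows of the MHC class I list (23.8%). The 69 windows belonged to 55 of the 72 listed genes, and 34 of these had a match. The 150 bases before the start are shown for Gbp3 (chr3:142559894-142560043, plus strand), Mndal (chr1:173880188-173880337, minus strand) and Gbp2 (chr3:142620513-142620662, plus strand), the genes of smallest P with a match there. The match, in capitals, began 45, 36 and 59 bases before the start, and in Gbp3 a pair of matches overlap.
Gbp3: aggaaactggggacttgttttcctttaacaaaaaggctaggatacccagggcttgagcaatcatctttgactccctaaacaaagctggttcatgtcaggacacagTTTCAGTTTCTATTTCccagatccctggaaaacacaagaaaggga
Mndal: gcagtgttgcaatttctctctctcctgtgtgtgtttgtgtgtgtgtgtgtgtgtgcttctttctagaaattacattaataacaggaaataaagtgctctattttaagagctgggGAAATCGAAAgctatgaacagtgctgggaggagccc
Gbp2: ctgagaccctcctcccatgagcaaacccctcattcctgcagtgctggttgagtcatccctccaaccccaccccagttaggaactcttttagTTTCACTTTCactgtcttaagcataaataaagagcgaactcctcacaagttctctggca

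Genes of incoming monocytes fell. Of 16 markers 13 fell and 1 rose (median log2FC -2.79), and their summed level went from 5679 to 6406 CPM at 2 dpi to 604 to 745 CPM at 7 dpi. Most of the sum at 2 dpi came from Fn1 and Thbs1, so it says little about the other markers. Thbs1, also listed among the inflammatory mediators, made 1482, 1481 and 1384 CPM of it at 2 dpi and 303, 212 and 184 CPM at 7 dpi. Fn1, which encodes fibronectin, measured 3467, 3275 and 4119 CPM and 141, 79.5 and 70.1 CPM (log2FC = -5.22, SE 0.45, adjusted P = 1.08e-06), and Chil3, a chitinase-like protein, 348, 215 and 248 CPM and 3.99, 0.986 and 10.9 CPM (log2FC = -5.67, SE 0.59, adjusted P = 5.22e-06). Vcan, the proteoglycan versican, fell with a log2FC of -4.74. For these 3 genes the groups did not overlap. Ly6c2, which encodes the surface protein that defines classical monocytes, had 21.7, 16.9 and 23.1 CPM at 2 dpi and 4.53, 0.493 and 17.1 CPM at 7 dpi. Replicate 3 of 7 dpi overlapped with 2 dpi, and the gene was not called (log2FC = -1.48, SE 0.66, adjusted P = 0.0765) except without that library, without the filter on low counts, with limma-voom and with the replicate block. Ccr2, the receptor for CCL2, measured 371, 381 and 354 CPM and 144, 263 and 143 CPM and lay at the fold threshold (log2FC = -1.01, SE 0.23, adjusted P = 0.00214), which it missed under 12 of the alternatives. In bulk libraries fewer cells of a type and less RNA per cell cannot be told apart.

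Chemokine genes moved in both directions, with the decreases in the majority. Of 23 tested genes 12 fell and 6 rose (median log2FC -1.46). Ccl2, the ligand that draws monocytes through CCR2, measured 1055, 763 and 849 CPM at 2 dpi and 18.3, 22.2 and 22.9 CPM at 7 dpi (log2FC = -5.39, SE 0.55, adjusted P = 4.93e-06), and Ccl7, a second ligand of that receptor, 1768, 1179 and 1259 CPM and 40.4, 44.3 and 34.3 CPM (log2FC = -5.14, SE 0.64, adjusted P = 1.94e-05). Ccl6 and Ccl9 fell with log2FC values of -3.22 and -2.85, and Cxcl3, which draws neutrophils, with -4.13. Against them, Cxcl16, a membrane-bound chemokine for T and NK cells, rose from 47.4, 53.3 and 40.4 CPM to 307, 279 and 289.9 CPM (log2FC = 2.63, SE 0.22, adjusted P = 9.28e-07). Ccl5, which acts on T cells and monocytes, rose from 0.0376, 0.199 and 0.143 CPM to 9.10, 4.28 and 3.79 CPM (log2FC = 5.49, SE 0.65, adjusted P = 1.27e-05), a low level in which all libraries of 7 dpi were above those of 2 dpi. In 7 of the 18 chemokine DEGs 4 dpi was nearer to 7 dpi than the midpoint, in 13 without 4 dpi replicate 1, in 3 without 4 dpi replicate 2 and in 2 without 4 dpi replicate 3.

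Other inflammatory mediators fell more often than they rose, 19 against 4 of 34 tested (median log2FC -1.32). Acod1, whose product makes itaconate, fell from 7.21, 9.71 and 7.10 CPM to 0.243, 0.308 and 0.509 CPM (log2FC = -4.48, SE 0.37, adjusted P = 8.85e-07), and Thbs1, thrombospondin 1, from 1482, 1481 and 1384 CPM to 303, 212 and 184 CPM (log2FC = -2.64, SE 0.31, adjusted P = 1.15e-05). The pattern recognition receptor gene Clec4e fell as well (log2FC = -2.64, SE 0.31, adjusted P = 1.36e-05). Il1b, an early cytokine of macrophages, did not follow them. It measured 268, 289 and 223 CPM at 2 dpi, 123, 126.9 and 123 CPM at 4 dpi and 345, 582 and 227 CPM at 7 dpi. The libraries of 2 and 7 dpi overlapped and it was not called (log2FC = 0.56, SE 0.29, adjusted P = 0.118), and 4 dpi lay below both (adjusted P = 0.00548 against the midpoint). Il6 was low at both times, with 0.977, 1.49 and 1.22 and 0.945, 2.46 and 0.565 CPM (log2FC = 0.11, SE 0.45, adjusted P = 0.86). Nfkb1, a subunit of NF-kappaB, rose (log2FC = 1.35, SE 0.25, adjusted P = 0.000438, a call lost after removing a trend on gene length), as did the cytokine gene Il18 (log2FC = 1.17, SE 0.23, adjusted P = 0.000687).

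Complement genes rose more often than they fell, among them those of the 3 chains of C1q, a protein that tags apoptotic cells and, in development, synapses. Of 20 tested genes 10 rose and 2 fell (median log2FC 1.83). C1qa measured 384, 376 and 329 CPM at 2 dpi and 1739.6, 1175 and 1149 CPM at 7 dpi (log2FC = 1.90, SE 0.24, adjusted P = 2.4e-05). C1qb and C1qc rose with log2FC values of 1.76 and 1.92, and no library of 7 dpi overlapped with 2 dpi for any chain. The falling ones were Cfp, which encodes properdin (log2FC = -1.58, SE 0.23, adjusted P = 7.15e-05), and C5ar1, the receptor for the anaphylatoxin C5a (log2FC = -1.96, SE 0.38, adjusted P = 0.000626).

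Markers of resident macrophages did not move as 1 group. Of 34 tested genes 11 rose and 6 fell, without 7 dpi replicate 2 the numbers were 6 and 10, and without 2 dpi replicate 3 they were 7 and 6. Lyve1, a hyaluronan receptor, had 33.8, 32.1 and 18.5 CPM at 2 dpi and 1.03, 24.6 and 2.60 CPM at 7 dpi, with replicate 2 alone within the range of 2 dpi, and was not called (log2FC = -1.58, SE 0.69, adjusted P = 0.0699) except without that library, without the filter, with limma-voom and with the replicate block. Cd163, the scavenger receptor for haemoglobin, showed the same layout with 70.9, 87.9 and 35.6 and 18.3, 62.4 and 11.3 CPM (log2FC = -1.08, SE 0.51, adjusted P = 0.0931) and was called lower under the same alternatives as Lyve1. Mrc1, the mannose receptor, had 798, 841 and 532 and 412, 735 and 283 CPM (log2FC = -0.60, SE 0.34, adjusted P = 0.148), Timd4, a receptor for apoptotic cells, 0.376, 0.299 and 0.0717 and 0.324, 2.46 and 0.565 CPM (log2FC = 2.16, SE 0.97, adjusted P = 0.0773), and Folr2, a folate receptor, 7.59, 7.77 and 7.17 and 5.21, 5.27 and 4.21 CPM (log2FC = -0.62, SE 0.22, adjusted P = 0.0325). None of them was a DEG, although Mrc1 was called lower without 7 dpi replicate 2 and Timd4 higher with DESeq2. Clear changes in this list were in Hpgd, which breaks down prostaglandins (log2FC = 4.26, SE 0.48, adjusted P = 9.91e-06), and in Txnip, a brake on glucose uptake (log2FC = 2.41, SE 0.33, adjusted P = 4.15e-05), which rose, and in the lipid scavenger receptor Cd36, which fell from 1316, 1018 and 1628 CPM to 148, 209 and 266 CPM (log2FC = -2.67, SE 0.28, adjusted P = 5.22e-06).

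Genes of alternative activation and of lipid-associated macrophages were likewise mixed, with 4 of 26 and 7 of 29 higher and 5 and 8 lower. Without 7 dpi replicate 2 the lower ones of alternative activation numbered 10, and with limma-voom the higher ones 2. Mgl2, a C-type lectin, was called higher (log2FC = 3.13, SE 0.77, adjusted P = 0.00363), but its libraries of 7 dpi held 3.86, 49.4 and 4.52 CPM, and without replicate 2 the call was lost. Apoe, the lipid-carrying apolipoprotein E, measured 1023, 931 and 891 CPM at 2 dpi and 20484, 11195 and 8373 CPM at 7 dpi (log2FC = 3.82, SE 0.42, adjusted P = 8.6e-06). Spp1, the secreted phosphoprotein osteopontin, went from 4879, 5108 and 7062 CPM to 684, 105 and 1169 CPM (log2FC = -3.12, SE 0.61, adjusted P = 0.000608). Both are known from lipid-associated macrophages, and they moved in opposite directions with no overlap between groups. Trem2, the lipid-sensing receptor of these cells, had 134, 113 and 135 and 229, 80.7 and 198 CPM and was not called (log2FC = 0.41, SE 0.30, adjusted P = 0.266). Gpnmb, a lysosomal glycoprotein, had 774, 647 and 1199.7 CPM at 2 dpi, 2140.5, 3364 and 2899.8 CPM at 4 dpi and 1295, 315 and 1971 CPM at 7 dpi, so that 4 dpi was above every library of both other times, and 7 against 2 dpi was not called (log2FC = 0.45, SE 0.48, adjusted P = 0.458). In Spp1, Trem2 and Gpnmb the lowest library of 7 dpi was replicate 2.

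Of 28 growth factors of muscle and vessel repair 10 rose and 6 fell. Igf1, a growth factor for muscle progenitors, measured 40.3, 31.9 and 58.1 CPM at 2 dpi and 234, 165 and 167 CPM at 7 dpi (log2FC = 2.12, SE 0.30, adjusted P = 5.66e-05), and Pdgfb, a growth factor for fibroblasts and mural cells, 3.83, 3.09 and 5.95 CPM and 24.6, 21.3 and 18.5 CPM (log2FC = 2.32, SE 0.29, adjusted P = 2.16e-05). The cytokine gene Osm fell from 157, 138 and 157 CPM to 54.3, 51.6 and 62.8 CPM (log2FC = -1.42, SE 0.20, adjusted P = 4.48e-05), and Inhba, a subunit of activin A, also fell (log2FC = -3.19, SE 0.45, adjusted P = 5.22e-05). No groups overlapped in these 4 genes.

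**Figure D4:**
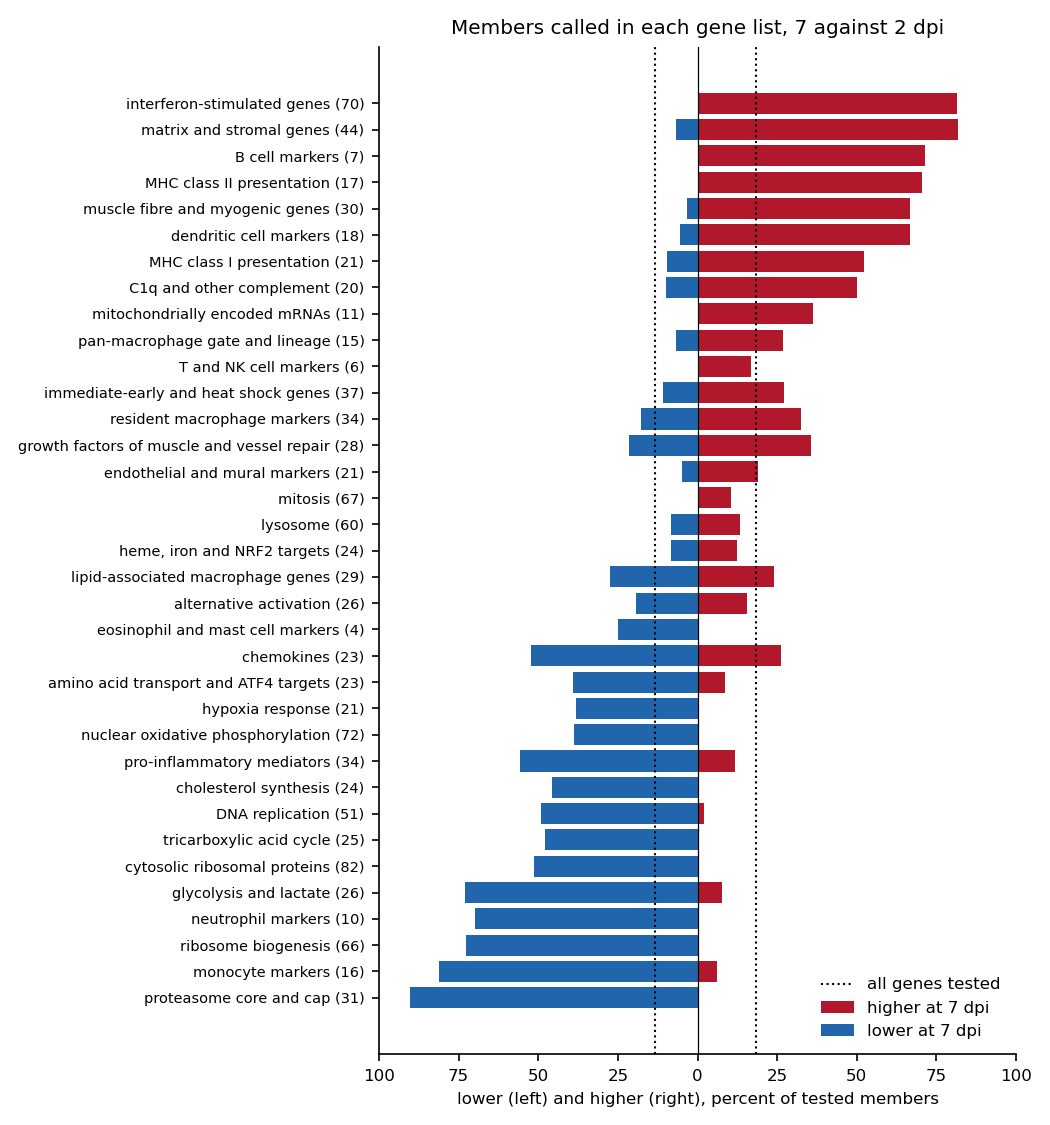
Percent of tested members that were higher (right, red) and lower (left, blue) at 7 than at 2 dpi for 35 gene lists on the y-axis (tested members in brackets), with dotted lines at the 18.5% and 13.4% of all genes. Interferon-stimulated, matrix, B cell and MHC class II lists extend furthest to the right, and proteasome, monocyte and glycolysis lists furthest to the left.

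Most glycolytic genes fell. Of 26 genes that take glucose to lactate 19 fell and 2 rose (median log2FC -1.68). Pkm, the pyruvate kinase of these cells, measured 1523, 1504 and 1672 CPM at 2 dpi and 223, 136 and 429 CPM at 7 dpi (log2FC = -2.58, SE 0.38, adjusted P = 7.04e-05). Ldha, which makes lactate, measured 664, 667 and 740.0 CPM and 162, 113 and 238 CPM (log2FC = -2.01, SE 0.32, adjusted P = 0.000116), and Gapdh 69.3, 71.1 and 63.3 CPM and 7.45, 10.7 and 16.5 CPM (log2FC = -2.55, SE 0.28, adjusted P = 8.6e-06). In each case the groups were well apart, and the median place of 4 dpi over the called genes was 0.33. Ldhb, whose product favours lactate use, was at 4.88, 4.38 and 4.37 CPM and 12.5, 2.65 and 11.8 CPM and was not called (log2FC = 0.99, SE 0.44, adjusted P = 0.0725), while without 7 dpi replicate 2, with RLE size factors and with DESeq2 it was higher at 7 dpi. The risers were Pfkfb4, a regulator of glycolytic flux (log2FC = 1.33, SE 0.21, adjusted P = 0.000147), and Pfkm, an isoform of phosphofructokinase (log2FC = 1.06, SE 0.38, adjusted P = 0.0328), the second of which lost its call without 2 dpi replicate 2 or 3 or 7 dpi replicate 2 or 3. Hif1a, the oxygen-regulated transcription factor, fell from 335, 267 and 280.1 CPM to 81.7, 62.7 and 76.8 CPM (log2FC = -1.99, SE 0.21, adjusted P = 5.75e-06). Of 21 hypoxia response genes 8 fell and none rose. ACGTG, the core of the sites that factor binds, was in 18 of 37 promoter windows of the glycolysis list (48.6%) and in 19.6% of all windows, matches to CACGTG included.

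Genes of mitochondrial metabolism fell too when encoded in the nucleus. Of 25 tricarboxylic acid cycle genes 12 fell and none rose, led by Cs, citrate synthase, with 175, 185 and 179.6 CPM at 2 dpi and 39.7, 42.4 and 61.9 CPM at 7 dpi (log2FC = -1.91, SE 0.20, adjusted P = 5.06e-06). Among 72 oxidative phosphorylation genes of the nucleus 28 fell and none rose (median log2FC -0.92), and in 62 the libraries of 7 dpi all lay below those of 2 dpi, against 29.2% of all genes. Atp5a1 of the ATP synthase measured 972, 987 and 952 CPM and 189, 237 and 436 CPM (log2FC = -1.76, SE 0.26, adjusted P = 6.86e-05). Many of these differences lay near the fold threshold. Without 7 dpi replicate 2 only 7 oxidative phosphorylation genes (9.72%) and 7 tricarboxylic acid cycle genes (28.0%) were called, against 10.8% of all genes tested. With RLE size factors or DESeq2 the numbers were 19 (26.4%) and 9 (36.0%), against 11.1% and 11.4% of all genes with these settings. Of 11 tested mRNAs encoded by mitochondrial DNA 4 were higher and none lower, a count that turned on single libraries. mt-Co1, a subunit of cytochrome oxidase, measured 434, 325 and 357 CPM and 864, 2589.9 and 1319 CPM (log2FC = 2.10, SE 0.35, adjusted P = 0.000174), with replicate 2 highest. Without replicate 2 of 7 dpi 1 of these mRNAs was higher and 2 were lower, and without replicate 1 or 3 the higher ones numbered 7.

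Genes for making and removing proteins fell. Of 82 cytosolic ribosomal protein genes 42 fell and none rose (median log2FC -1.01). In 77 the groups did not overlap in that direction, against 29.2% of all genes. Many of these differences lay near the fold threshold. The called genes numbered 30 with RLE size factors or DESeq2, and 28 without 7 dpi replicate 2 (34.1%, against 10.8% of all genes tested). Rpsa measured 276, 295 and 258 CPM at 2 dpi, 256, 215 and 230.0 CPM at 4 dpi and 74.0, 81.1 and 118 CPM at 7 dpi (log2FC = -1.60, SE 0.20, adjusted P = 1.76e-05 for 7 against 2 dpi). The 4 dpi libraries were thus still near 2 dpi, and the median place of 4 dpi over the 42 genes was 0.10. Of 66 ribosome biogenesis genes 48 fell and none rose (median log2FC -1.49). Rrp12, a ribosome assembly factor, measured 25.1, 22.2 and 24.4 CPM, 12.2, 4.71 and 8.21 CPM and 2.46, 3.54 and 3.67 CPM (log2FC = -2.89, SE 0.31, adjusted P = 5.71e-06), and Polr1a, the large subunit of RNA polymerase I, 33.8, 28.5 and 30.9 CPM, 14.0, 9.41 and 9.75 CPM and 5.48, 7.92 and 8.48 CPM (log2FC = -2.09, SE 0.24, adjusted P = 9.85e-06). Here the median place of 4 dpi was 0.77, but only 4 of the 48 genes were nearer to 7 dpi than the midpoint by the test, 0 without 4 dpi replicate 2 or 3 and 27 without 4 dpi replicate 1, and the difference between the lists was not tested. The E box CACGTG was in 12 of 66 promoter windows of this list (18.2%) and in 7.15% of all windows. Many ribosomal protein genes have near-identical pseudogenes, which makes their counts uncertain. Processed pseudogenes as a class moved with them, with 190 of 620 lower and 63 higher.

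The proteasome had the highest share of falling members among the lists, 28 of 31, with none higher (median log2FC -1.48). All 31 lay lower without overlap between the groups, against 29.2% of all genes. The called genes numbered 26 with RLE size factors or DESeq2 and 24 without 7 dpi replicate 2. Psmb4, a subunit of the core, measured 82.0, 85.2 and 77.6 CPM at 2 dpi and 21.97, 13.7 and 30.4 CPM at 7 dpi (log2FC = -1.89, SE 0.25, adjusted P = 2.71e-05), and Psmd14, the deubiquitinase of the cap, 117, 111 and 111 CPM and 26.8, 22.9 and 43.7 CPM (log2FC = -1.86, SE 0.24, adjusted P = 2.42e-05). Of 23 genes of amino acid transport and ATF4 targets 9 fell and 2 rose. Psat1 of serine synthesis fell from 66.9, 77.7 and 69.2 CPM to 3.08, 4.31 and 10.8 CPM (log2FC = -3.55, SE 0.40, adjusted P = 9.27e-06) and Atf4, the transcription factor of the amino acid response, from 51.4, 60.9 and 61.6 CPM to 17.0, 23.04 and 22.4 CPM (log2FC = -1.48, SE 0.21, adjusted P = 4.77e-05), whereas Ddit3, a target of that factor, rose (log2FC = 2.02, SE 0.38, adjusted P = 0.000489). Of 24 genes of cholesterol synthesis 11 fell and none rose, among them Fdft1, which encodes squalene synthase (log2FC = -1.53, SE 0.26, adjusted P = 0.000212). Lysosomal genes were close to the background, with 8 of 60 higher and 5 lower. Ctsl, a cysteine protease, fell (log2FC = -2.31, SE 0.38, adjusted P = 0.000182) and Ctsh, another, rose (log2FC = 1.37, SE 0.22, adjusted P = 0.000164), and the counts were 5 higher and 8 lower without 2 dpi replicate 2, 4 higher without 7 dpi replicate 1 10 lower without 7 dpi replicate 3, 8 lower with limma-voom and 9 lower after removing a trend on gene length.

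Iron handling changed in single genes rather than as a list, in which 3 of 24 rose and 2 fell (4 with limma-voom). Beside ferroportin, Spic, a transcription factor of macrophages that recycle haem iron, rose from 0.338, 1.49 and 1.15 CPM to 17.1, 11.1 and 20.6 CPM (log2FC = 4.05, SE 0.46, adjusted P = 1.02e-05). Tfrc, the receptor that takes iron up, fell from 113, 117 and 84.0 CPM to 10.4, 15.6 and 27.6 CPM (log2FC = -2.55, SE 0.33, adjusted P = 2.49e-05), and Hmox1, haem oxygenase 1, from 614, 573 and 669 CPM to 124, 177 and 164 CPM (log2FC = -1.99, SE 0.32, adjusted P = 0.000134). The groups did not overlap for these 3 genes.

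DNA replication genes fell. Of 51 DNA replication genes 25 fell and 1 rose (median log2FC -1.10). Mcm5, a subunit of the replicative helicase, measured 41.3, 57.8 and 50.4 CPM at 2 dpi, 64.4, 18.6 and 27.6 CPM at 4 dpi and 7.67, 7.33 and 19.95 CPM at 7 dpi (log2FC = -2.10, SE 0.43, adjusted P = 0.000872 for 7 against 2 dpi), and Pcna, the sliding clamp, 76.6, 80.8 and 78.5 CPM, 74.4, 36.1 and 46.8 CPM and 29.4, 18.8 and 34.8 CPM (log2FC = -1.51, SE 0.25, adjusted P = 0.000181). Of 67 mitosis genes 7 rose and none fell (median log2FC 0.46), a share below that of all genes. Mki67, which encodes the proliferation antigen Ki-67, rose from 11.1, 12.6 and 11.9 CPM to 33.0, 23.5 and 51.8 CPM (log2FC = 1.60, SE 0.27, adjusted P = 0.000203), and Cenpa, the histone of centromeres, from 7.29, 5.48 and 5.45 CPM to 18.9, 24.2 and 18.9 CPM (log2FC = 1.76, SE 0.23, adjusted P = 3.03e-05). Ccnb2, a mitotic cyclin, was highest at 4 dpi, with 1.80, 0.946 and 2.65 CPM, 29.6, 33.3 and 26.7 CPM and 7.02, 2.03 and 13.4 CPM (log2FC = 2.03, SE 0.50, adjusted P = 0.0034). Replicate 2 was the lowest library of 7 dpi for Mki67, Cenpf and Ccnb2, and without it 20 of the 67 mitosis genes were higher (29.9%, against 14.9% of all genes tested), so that the share passed from below to above that of all genes. The number was 12 with RLE size factors, 14 with DESeq2 and 4 without 2 dpi replicate 1. The difference between the 2 lists was not tested.

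The promoters of these lists also differed in their letters. TTTGAA, the core of the cell cycle genes homology region of late cell cycle genes, was in 42 of 61 windows of the mitosis list (68.9%), in 6 of 50 of the DNA replication list (12.0%) and in 17.9% of all windows. TTTCCCGC, the site known for E2F factors, was in 2 of 61 (3.28%), 7 of 50 (14.0%) and 1.07%, respectively, and ATTGG was in 47 of 61 (77.0%) and 30 of 50 (60.0%). The called genes of smallest P with such a match in the 150 bases before the start are shown, Mki67 (chr7:135716380-135716529, minus strand) and Kif15 (chr9:122950931-122951080, plus strand) for TTTGAA or its complement TTCAAA and Cdc6 (chr11:98908001-98908150, plus strand) for TTTCCCGC or its complement, in capitals. Kif15, a motor protein of the spindle, rose (log2FC = 1.36, SE 0.41, adjusted P = 0.0122), and Cdc6, which loads the helicase, fell (log2FC = -1.46, SE 0.57, adjusted P = 0.0435).
Mki67: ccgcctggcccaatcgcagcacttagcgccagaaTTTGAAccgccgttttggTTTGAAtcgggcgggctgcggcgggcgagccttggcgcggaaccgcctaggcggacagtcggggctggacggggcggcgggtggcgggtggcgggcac
Kif15: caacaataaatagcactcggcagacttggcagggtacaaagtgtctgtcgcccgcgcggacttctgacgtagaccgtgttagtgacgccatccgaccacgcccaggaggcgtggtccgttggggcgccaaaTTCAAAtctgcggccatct
Cdc6: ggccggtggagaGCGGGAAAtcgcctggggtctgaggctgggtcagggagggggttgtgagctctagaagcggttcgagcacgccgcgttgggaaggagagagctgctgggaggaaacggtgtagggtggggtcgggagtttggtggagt

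The level at 4 dpi placed the changes in time. Over the DEGs the median place of 4 dpi was 0.51 for higher and 0.46 for lower genes. Departure from the midpoint passed the test in 564 of the 4574 DEGs, and in 10.3% of all genes tested. Among higher genes 331 (12.5%) were nearer to 7 dpi and 89 (3.35%) nearer to 2 dpi, and among lower genes 55 (2.86%) and 89 (4.64%). The 564 fell to 239 without 4 dpi replicate 2, to 217 without 4 dpi replicate 3 and to 364 without 2 dpi replicate 3, and it was 854 without 7 dpi replicate 3. Among the 26 lists with at least 8 called members, interferon-stimulated genes (1.06), cholesterol synthesis (0.85), MHC class I genes (0.84) and chemokines (0.82) were furthest along at 4 dpi. Ribosomal proteins (0.10), oxidative phosphorylation (0.20) and DNA replication (0.26) had moved least. By the test 1 of 11 cholesterol synthesis DEGs and 6 of 13 MHC class I DEGs were nearer to 7 dpi. With 1 library left out these numbers were 0 to 7 and 2 to 8. Of the 42 falling ribosomal protein genes 16 were nearer to 2 dpi, a number that dropped to 1 without 4 dpi replicate 2 and to 2 without 4 dpi replicate 3 and became 38 without 7 dpi replicate 3.

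**Figure D5:**
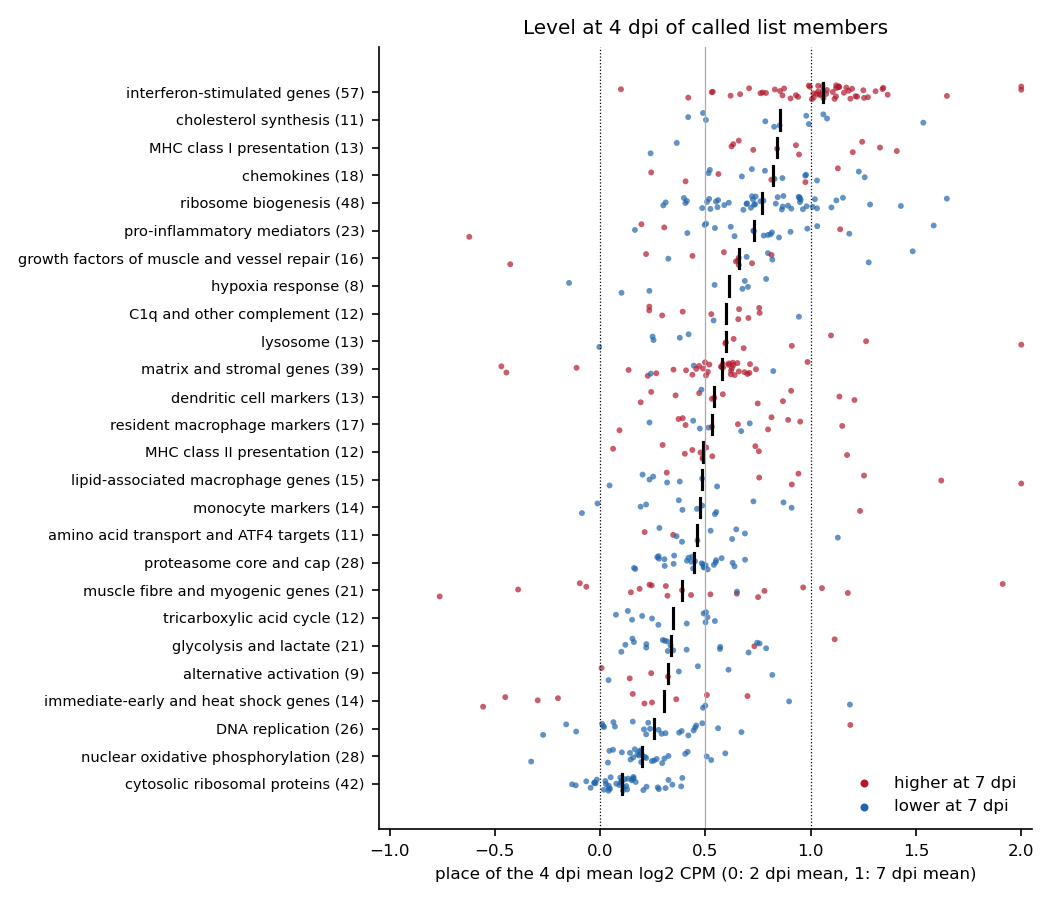
Place of the mean log2 CPM of 4 dpi between the means of 2 dpi (0) and 7 dpi (1) on the x-axis, for each called member (points, red where higher and blue where lower at 7 dpi) of the 26 lists with at least 8 of them (y-axis, called members in brackets), with the median as a bar. Lists run from 0.10 for ribosomal proteins to 1.06 for interferon-stimulated genes, and 4 points beyond the range of -1 to 2 are drawn at its edge.

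Genes of uncertain type, antisense genes and lincRNAs rose far more often than they fell. Processed pseudogenes went the other way, with 63 of 620 higher and 190 lower. Of 521 tested loci annotated as TEC, which are transcripts awaiting experimental proof, 271 rose and 2 fell (median log2FC 2.32). Antisense genes rose in 122 of 325 cases and fell in 4, and lincRNAs in 72 of 233 and 3. Protein-coding genes rose in 1972 and fell in 1690 of 12149 cases. With the unnamed gene left aside, 0.0449% to 0.0483% of counts fell on TEC loci at 2 dpi and 0.150% to 0.396% at 7 dpi, with the highest share in replicate 2, the library that also held the highest mitochondrial share. Divided into 4 classes by exonic length, the longest genes had a median log2FC of 0.27 and the shortest 0.00. The part of RNA composition in these differences was not tested.

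Immediate-early and heat shock genes, which respond to tissue digestion as well as to signals in the animal, were mixed, with 10 of 37 higher and 4 lower (7 and 7 without 7 dpi replicate 2). Hspa1b, an inducible chaperone of the HSP70 family, measured 51.6, 38.8 and 38.5 CPM at 2 dpi and 149, 377 and 108 CPM at 7 dpi (log2FC = 2.30, SE 0.35, adjusted P = 9.72e-05), with 20.3, 26.5 and 19.9 CPM at 4 dpi. Dusp2, a phosphatase of MAP kinases, rose (log2FC = 2.63, SE 0.36, adjusted P = 3.95e-05), and Fosl1, a subunit of AP-1, fell to at most 0.054 CPM (log2FC = -5.69, SE 0.80, adjusted P = 5.22e-05). Replicate 2 was the highest library of 7 dpi for Hspa1b and Dusp2.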

How the data were processed

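Hindlimb ischemia macrophages were profiled with Smart-seq2/3 libraries and paired-end sequencing. Per the paper's methods and the submitters' processing notes, the authors used Trim Galore 0.6.6 for trimming, HISAT2 2.2.1 for alignment to GRCm39 and Subread 2.0.1 for counting, and deposited raw counts for each gene ID. The annotation release is not given in the sources used here. Of counts from 1 to 20, a median of 83.1% per library were even, so mates may have been counted one by one, which would overstate small counts.

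R 4.3.3 was used with edgeR 4.0.16, and for alternatives with DESeq2 1.42.0 and limma 3.58.1. After filterByExpr and TMM scaling, all 12 libraries were fitted together, with a coefficient for each time point. The quasi-likelihood F test compared 7 with 2 dpi, and 4 dpi with the mean of both, with Benjamini-Hochberg adjustment over all 14310 genes. A DEG needed an FDR under 0.05 with an absolute log2FC over 1. CPM are TMM-scaled shares of all counts, the unnamed gene included, are not divided by gene length, and are compared between libraries and not between genes. Log2 CPM used a prior count of 2. The place of 4 dpi is its mean log2 CPM as a fraction of the way from the mean of 2 dpi to that of 7 dpi.

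Ensembl IDs were matched to a GRCm38 annotation for symbols, gene types and lengths, and 3333 IDs had no symbol. Promoter windows, 250 bases before to 50 after a gene's start, are RefSeq sequences of GRCm38.p6 and do not use the coordinates of the counts. Motifs, and the genes shown, were chosen after the values were seen.

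The comparison, the gene lists and the rule for naming genes were chosen with earlier results of these data known. The rule takes the 15 DEGs of largest increase and the 15 of largest decrease whose mean log2 CPM was 4 or more at the time point of higher level and whose libraries lay apart, the 4 DEGs of smallest P in each list and 2 at most that moved against it, and a set of macrophage genes. It named 188 genes, of which 186 were tested and a part is described. Some items are not reported here.

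On simulated counts for 2 against 7 dpi over 13724 genes, 70 of 96 genes changed 4-fold and 28 of 100 changed 2-fold were recovered at an FDR under 0.05, and 4 unchanged genes were called. With the fold threshold as well these numbers were 70, 22 and 4. Far fewer genes were changed there than were called in the data, so recovery in the data may differ. Alternatives were RLE size factors, no filter, CPM above 1 in 3 libraries, DESeq2, limma-voom, the 6 libraries alone, the replicate number as a block, glmTreat, no fold threshold and each library left out. Leaving out the unnamed gene and removing a trend on gene length were added after the data were seen. CUT&Tag and flow cytometry data of the study are not analysed here.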

Additional observations from a re-analysis of the deposited data

How the results depend on the processing

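The counts of DEGs kept within 1.5 times of 2654 higher and 1920 lower under all alternatives but 2. With glmTreat, which tests against the fold threshold itself, 1163 genes were higher and 665 lower, and without the fold threshold 3412 were lower. With 1 library left out, higher genes numbered 2172 to 3082 and lower genes 1581 to 2240, and departures from the midpoint among DEGs 217 to 854. The midpoint could not be computed from the 6 libraries alone or with glmTreat. Whether replicate numbers pair the samples is not given by the labels. The correlation of deviations between same-numbered libraries was -0.133 to 0.128 over 18 pairs. It cannot settle the question, since deviations of 3 libraries from their own mean are tied to one another. With the replicate block 2514 genes were higher, 1946 lower and 540 off the midpoint. Of the counts of list members under the alternatives, 1492 were within 1.5 times of the value given and 118 were not. For the named genes, 3842 values kept direction and call, 39 lost the call, 20 gained it and 4 reversed. The reversals were of Il6 and Gpnmb, neither of them a DEG. The log2FC of Il6 was -0.15 with limma-voom and -0.65 to 0.49 over the fits that left out a library, negative when 2 dpi replicate 1 (-0.03) or 7 dpi replicate 2 was missing. That of Gpnmb was -0.091 to 0.93 over these fits, negative when 7 dpi replicate 3 was missing. Precision is limited by 3 libraries per time point, and genes with few counts need large changes to be called.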
